A study of Mus musculus with 6 samples.

Results

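The regions described here are the stretches of open chromatin found in one but not the other of the ATAC-seq libraries labelled Norm-Sen (mouse embryonic fibroblasts, MEFs, that had become senescent at 20% O2) and Hyp-Imm (MEFs that grew on as immortalized cells at 3% O2). An equal number of peaks, the 37137 strongest on the autosomes by −log10 q, was taken from each library, and overlapping peaks (1 bp or more) were joined. Of the 67344 regions this gave, 30650 were specific to Norm-Sen, 30330 were specific to Hyp-Imm and 6364 were shared. For comparisons between the specific sets, each Norm-Sen region was paired with a Hyp-Imm region of like GC content, like rank and the same place (promoter, within 1 kb of a transcription start site, or distal), which left 22085 pairs.

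All ATAC libraries came from C57BL/6J E13.5 embryos whose head and red organs had been removed, and the cells were passaged serially by a modified 3T3 scheme in medium with serum. The passage 1 cells of both oxygen conditions, labelled Norm-Pro (20% O2) and Hyp-Pro (3% O2), were measured in the same way, and Tfcp2l1 ChIP was made from senescent cells at 20% O2 (ChIP-Norm) and immortalized cells at 3% O2 (ChIP-Hyp). Each condition had 1 library, so no difference below has a replicate check. Intervals are exact 95% intervals that cover counting error alone. Oxygen and growth state both differ between Norm-Sen and Hyp-Imm and cannot be told apart, and the labels give neither library a passage number.

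The names of the deposited files disagree with the sample labels for all 4 ATAC libraries. The library labelled Norm-Sen has a name for hypoxia at passage 1, that labelled Hyp-Imm a name for senescent normoxia, that labelled Norm-Pro a name for immortalized hypoxia and that labelled Hyp-Pro a name for normoxia at passage 1. The labels are followed here, and the main values are also given as the file names would have them. Read by the file names, the senescent library is the one labelled Hyp-Imm and the immortalized library the one labelled Norm-Pro, and the directions of the promoter share, of the 5 called motifs and of opening at passage 1 turn between senescent and immortalized cells.

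ATAC-seq uses the Tn5 transposase, which inserts adapters where DNA is not wrapped in nucleosomes, so peaks lie at promoters, at enhancers and at other sites that proteins keep free. Promoters in CpG islands are open in nearly every cell type, whereas distal enhancers differ between cell states. In fibroblasts many enhancers carry sites for AP-1 (dimers of Fos and Jun family proteins, induced by growth factors and stress and active in senescence), and CTCF sites mark the anchors of chromatin loops.

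Sequences of individual regions follow, because short motifs are among the features in which the sets differed. Each is the 100 bases around the summit of a peak on the plus strand of GRCm38 (mm10), named by the gene with the nearest start site, and capitals mark the match to the motif named. They are the strongest paired regions of their set with that motif in these 100 bases, on the chromosomes searched and within the place given. The first, specific to Norm-Sen (rank 499), lies 76776 bp from Arrdc3 in intergenic DNA at chr13:80963019-80963118 and holds the AP-1 site TGAGTCA. The second is its Hyp-Imm pair (rank 930) in an intron near Trim11, at chr11:58994544-58994643, which has no AP-1 match.
Arrdc3, Norm-Sen, AP-1: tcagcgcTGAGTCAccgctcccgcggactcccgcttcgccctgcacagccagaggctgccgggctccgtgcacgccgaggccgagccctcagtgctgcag
Trim11, Hyp-Imm, its pair: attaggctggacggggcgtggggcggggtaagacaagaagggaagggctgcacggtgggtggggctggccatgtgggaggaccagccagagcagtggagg

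The strongest distal region specific to Hyp-Imm with an AP-1 site (rank 1742) lies in intergenic DNA 24704 bp from Inpp5a, at chr7:139364317-139364416, and was open in neither passage 1 library. CTCF matches are shown from both sets, since CTCF was the second common motif that separated them. The Norm-Sen region (rank 1170) lies in an intron near Sh3d19 at chr3:86110192-86110291 and the Hyp-Imm region (rank 1225) in an intron near Ubash3b at chr9:41044755-41044854, and both were also open in Norm-Pro but not in Hyp-Pro.
Inpp5a, Hyp-Imm, AP-1: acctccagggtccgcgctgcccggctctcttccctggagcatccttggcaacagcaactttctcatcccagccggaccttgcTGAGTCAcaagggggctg
Sh3d19, Norm-Sen, CTCF: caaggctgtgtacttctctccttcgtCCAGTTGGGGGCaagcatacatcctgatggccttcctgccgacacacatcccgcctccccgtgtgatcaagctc
Ubash3b, Hyp-Imm, CTCF: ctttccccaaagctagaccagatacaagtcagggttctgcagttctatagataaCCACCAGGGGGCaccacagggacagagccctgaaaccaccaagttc

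The next sequences show promoter motifs that were more frequent in Norm-Sen regions. They are a CRE (the site of CREB and ATF proteins) 765 bp from a start site of Adamts6 at chr13:104286987-104287086, an NRF1 site (NRF1 drives genes of mitochondria and growth) in an exon at the start of Snrnp70 at chr7:45395687-45395786, and the word TCGCGA at the start of Slf2 at chr19:44931030-44931129. All of them were also open in both passage 1 libraries.
Adamts6, Norm-Sen, CRE: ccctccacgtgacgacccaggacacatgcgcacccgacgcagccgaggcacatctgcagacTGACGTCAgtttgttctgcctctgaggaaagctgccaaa
Snrnp70, Norm-Sen, NRF1: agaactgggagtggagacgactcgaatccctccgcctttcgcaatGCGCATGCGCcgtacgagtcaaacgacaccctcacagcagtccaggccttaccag
Slf2, Norm-Sen, TCGCGA: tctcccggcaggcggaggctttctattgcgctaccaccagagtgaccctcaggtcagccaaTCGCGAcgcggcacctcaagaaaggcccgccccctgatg

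Tfcp2l1, a transcription factor of naive pluripotency, is the factor the study turned on, so the strongest peak with a match is shown from both sets. A match had at most 2 mismatches to the consensus, which holds a pair of CCNG boxes. Each match shown has the full 2 mismatches and keeps only 1 box intact, so strength here is that of the peak and not of the site. The Norm-Sen match lies at chr1:45767651-45767750 near Wdr75 and the Hyp-Imm match at chr10:53502618-53502717 near Mcm9, both in intergenic DNA.
Wdr75, Norm-Sen, Tfcp2l1: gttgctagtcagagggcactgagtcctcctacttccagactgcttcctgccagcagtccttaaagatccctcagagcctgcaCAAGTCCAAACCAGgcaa
Mcm9, Hyp-Imm, Tfcp2l1: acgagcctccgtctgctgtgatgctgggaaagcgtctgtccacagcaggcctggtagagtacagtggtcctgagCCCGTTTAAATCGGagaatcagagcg

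The libraries differed in peak number and in estimated background. Norm-Sen had 58518 autosomal peaks and Hyp-Imm 37137, so the equal number took 63.5% of the Norm-Sen list and all of the Hyp-Imm list. Total reads were not in the deposited peak lists, and the paper's methods give the same read yield for every sample. The commonest fold values were evenly spaced, and each step was taken as 1 read. On these steps lay 21.6% of Norm-Sen and 24.2% of Hyp-Imm peaks. The steps put the background of Hyp-Imm at 25.2% of that of Norm-Sen, an estimate that was not checked against reads. The weakest peak taken had a −log10 q of 3.33 in Norm-Sen and 1.31 in Hyp-Imm. Peaks at equal rank were therefore better supported in Norm-Sen throughout, and the part of this gap in the results below was not tested. Of 12 fibroblast marker genes, Fn1, Vim and Twist1 had an open promoter in both libraries, Pdgfra in Norm-Sen alone and Col1a2 in Hyp-Imm alone. The other 7, among them Col1a1, Col3a1, Pdgfrb, Prrx1 and Thy1, had no taken peak at their promoter in either library. Closed here and below means no more than that, and 12 of 38 ribosomal protein genes, such as Rpl4 and Rps3, which every cell uses, were closed in both by this measure. Single markers of other cell types were open in 1 library, among them Epcam and Des in Norm-Sen, and Cdh1, Kdr, Spi1 and Cd68 in Hyp-Imm. The neural marker Nes was open in Norm-Sen alone, and 1 more neural marker in both.

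Few regions had a taken peak in both the Norm-Sen and the Hyp-Imm library. This is overlap of peak lists, and a region outside the overlap need not differ in reads, which was not tested. The paper's comparison of read counts called fewer regions as changed between immortalized and senescent cells than were specific here. At equal peak number 9.45% of the regions were shared (interval 9.23 to 9.67%), and the share was 18.9% among the 500 strongest peaks of each library, 23.5% among the 2000 strongest and 16.8% among the 10000 strongest. The overlap lay in strong peaks. Of the strongest of 5 rank bands, 52.3% of Norm-Sen peaks and 44.1% of Hyp-Imm peaks met a peak of the other library, against 5.26% and 8.52% in the weakest band. It also lay at promoters: in the strongest band 66.1% of Norm-Sen and 80.2% of Hyp-Imm promoter peaks were overlapped, but 25.0% and 14.3% of distal peaks. In the weakest band 3.02% of Norm-Sen and 3.33% of Hyp-Imm distal peaks were. Read by the file names, 10.0% of 66927 regions were shared.

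**Figure D1:**
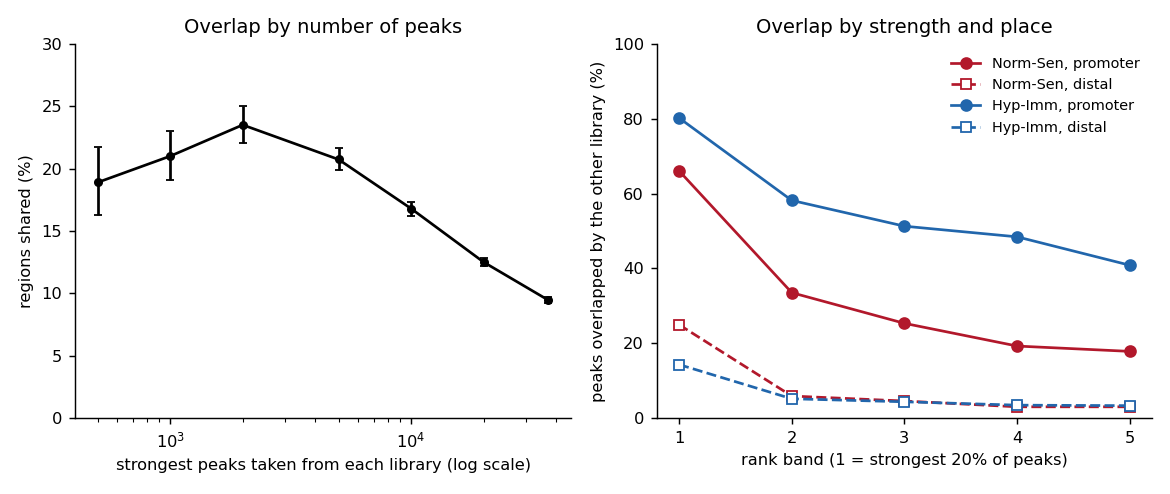
Left, regions shared by Norm-Sen and Hyp-Imm in percent of all regions (y axis) against the number of strongest peaks taken from each library (x axis, log scale), with exact 95% intervals. Right, peaks overlapped by the other library in percent (y axis) by rank band (x axis, 1 is the strongest 20% of peaks), promoter peaks as solid and distal peaks as dashed lines. Overlap was 23.5% at its highest and fell to 9.45% with all peaks taken, and promoter peaks lay above distal peaks in every band.

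Of the peaks under the limit, 869 Hyp-Imm specific regions (2.87%) met a weaker Norm-Sen peak that had not been taken. The same could not be asked of Hyp-Imm, whose peaks were all taken. A peak of the other library lay within 1 kb of 11.1% of Norm-Sen and 13.7% of Hyp-Imm specific regions. Where a region was shared, its median rank was 4951 in Norm-Sen and 7405.5 in Hyp-Imm.

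Norm-Sen specific regions lay at promoters about 2 times as often as Hyp-Imm specific ones. Promoters made up 20.9% of the former (20.4 to 21.4%) and 10.3% of the latter (9.99 to 10.7%), against 75.8% of the shared regions. CpG-island-like sequence stood in the same order, at 18.8%, 8.25% and 72.2%. Median GC content was 54% in Norm-Sen specific, 50% in Hyp-Imm specific and 66.5% in shared regions, and repeats covered on average 22.9%, 30.1% and 9.17% of them. Hyp-Imm specific regions were thus more distal, poorer in GC and richer in repeats, and also narrower, with a median width of 103 bp against 126 bp. By the file names the promoter shares were 9.31% in senescent and 23.1% in immortalized cells.

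The strongest specific promoters were also open at passage 1. In Norm-Sen they were those of Mdh1 (malate dehydrogenase, rank 83, −log10 q 26.2), Gm527, Lrrk2 (a kinase mutated in Parkinson disease), AW822073, Cabin1 (a calcineurin inhibitor) and Tmem14c, and all of these promoters were open in both passage 1 libraries. In Hyp-Imm they were those of Polr2a (for the catalytic subunit of the polymerase that makes mRNA, rank 169, −log10 q 13.46), Cntfr, Abhd8, Mcph1, Lzts2 and R3hdm2. Polr2a, Abhd8, Mcph1 and R3hdm2 were open in both passage 1 libraries, Cntfr in Norm-Pro alone and Lzts2 in Hyp-Pro alone.

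The strongest distal regions differed between the libraries in this. The 6 of Norm-Sen, near Gm14496 (chr2:181929242-181929427, rank 207), Mrln, Sept5, Sfi1, Arrdc3 and Muc3, were all open in both passage 1 libraries. Of the 6 of Hyp-Imm, near Gabrg1 (chr5:70778341-70778457, in an intron, rank 149), Glg1, Ghsr, Slc44a1, C1qb and Slc22a23, only that near C1qb was open in Norm-Pro, and none was open in Hyp-Pro. These Hyp-Imm regions were short, between 115 and 171 bp, and with the exception of C1qb, which held a RUNX site, none held a motif that was searched. Repeated or poorly mapped stretches were not removed from any comparison. Whether any of the distal regions named here, or of the promoters named above, lie in one was not tested.

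Pairing made the sets alike in what they were matched on. The pairs, 2623 at promoters and 19462 distal, took in 72.1% of the Norm-Sen and 72.8% of the Hyp-Imm specific regions. Median GC content was 52% on both sides and median rank 21312 against 21309. The sides still differed in −log10 q (median 4.10 in Norm-Sen, 2.89 in Hyp-Imm), in width (122 and 104 bp) and in repeats (24.8% and 28.5% on average). The regions left unpaired were those at the extremes: 44.2% of the 8565 from Norm-Sen were promoters, with a median GC content of 60%, against 6.20% and 44% for the 8245 from Hyp-Imm.

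Motifs were counted as windows of 200 bp around the summit that held the motif on either strand. The 33 motifs were AP-1 (TGAGTCA), CRE (TGACGTCA), Sp (GGGCGGG), Klf (GGGTGTGG), TEAD (CATTCC after an A or a G), RUNX (TGTGGTT), NFAT (TGGAAAA), CEBP (TTGCNNAA), the E-boxes of Myc (CACGTG), MyoD (CAGCTG) and Twist (CAGATG), HIF (ACGTGC), ETS (CCGGAAG), NRF1 (GCGCATGCG), NFY (the CCAAT box, then C or G, then A or G), YY1 (AAGATGGC), Cdx and posterior Hox (TTTATGG, or in its other form TTTACGA), homeobox (TAATTA), Sox (ACAATGG), Oct (ATGCAAAT), Fox (TGTTTAC), the GATA family (AGATAAG), Nr5a2 and Esrr (TCAAGGTCA), NFI (CTTGGCA), STAT (TTCNNNGAA), IRF (GAAANTGAA), NRF2 (TGACNNNGC), and CTCF, NFkB, p53, SRF, MEF2 and Tfcp2l1 by their consensus. A motif was called when its share on one side was at least 25% above that on the other, a rule of size and not a test.

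After pairing, 5 of the 33 motifs were called and all of them were more frequent in Norm-Sen regions; none was called for Hyp-Imm over all pairs. AP-1 was in 1659 Norm-Sen windows (7.51%) and 905 Hyp-Imm windows (4.10%), a ratio of 1.83 (1.69 to 1.99), where 6.07% of the windows of all autosomal peaks of the 4 libraries held it. CTCF was in 5.79% against 3.64% (ratio 1.59, 1.46 to 1.74; 4.99% of all windows). These were the common motifs of the 5. CRE stood at 110 against 53 windows (ratio 2.08, 1.48 to 2.94; 0.710% of all windows). NRF1 stood at 77 against 39 (1.97, 1.33 to 2.98; 0.508%). The site of ETS factors, which bind many housekeeping promoters, was in 518 against 359 windows (1.44, 1.26 to 1.66; 3.57%). At least 1 of the 5 motifs was in 15.8% of Norm-Sen, 9.47% of Hyp-Imm and 24.3% of shared regions. Pairs matched in addition on the number of CG dinucleotides kept AP-1 at 1.83, CTCF at 1.68 and CRE at 1.82, but left ETS at 1.23, below the call, and NRF1 just at the call with an interval of 0.766 to 2.06.

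**Figure D2:**
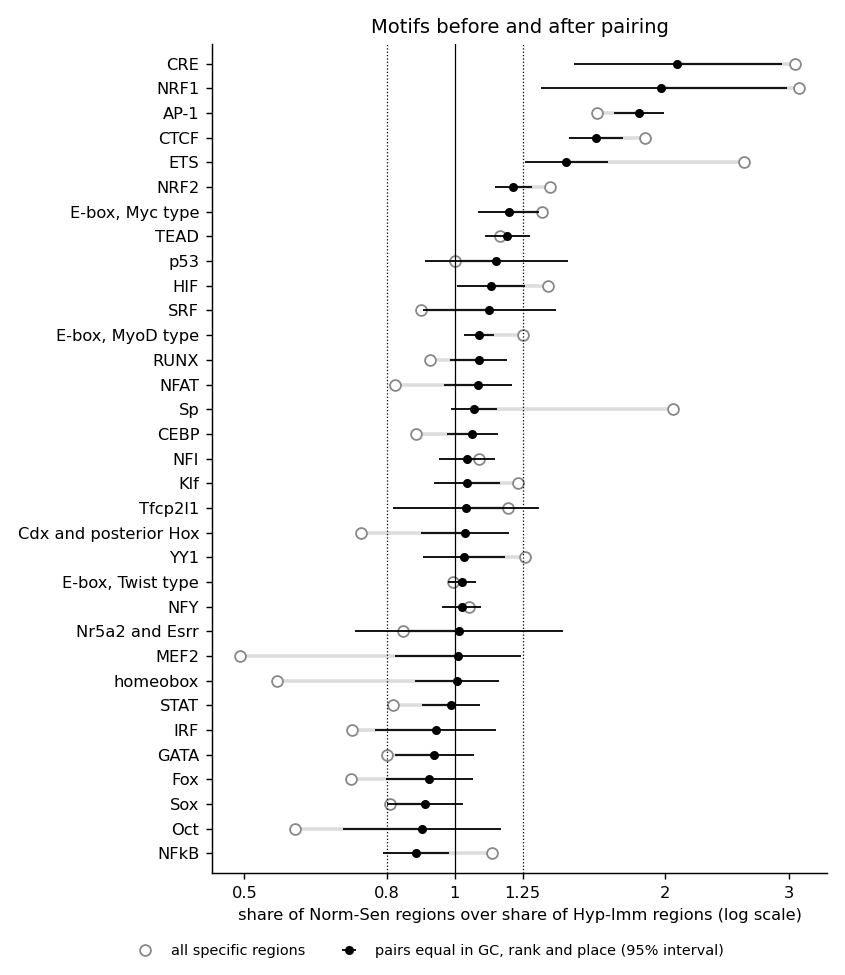
Share of Norm-Sen specific regions with a motif over the share of Hyp-Imm specific regions (x axis, log scale) for the 33 motifs (y axis), in all specific regions (open circles) and in pairs of equal GC, rank and place (filled circles, with exact 95% intervals). The E-boxes are named by a factor that binds them, solid and dotted vertical lines mark equal shares and the limits of a call, and pairing brought 27 of the 33 ratios closer to 1.

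More motifs were called before pairing, which matched GC content, rank and place together. Among all specific regions 11 motifs were called for Norm-Sen and 6 for Hyp-Imm, and 12 of those calls were gone among the pairs. Sp sites, G-rich boxes of CpG islands, went from a ratio of 2.05 to 1.07. The AT-rich sites of MEF2 and of homeobox proteins went from 0.492 and 0.557 to 1.01 each. AP-1 went the other way, from 1.60 to 1.83.

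The factors named by the question of oxygen, senescence and stemness did not separate the sets by the same rule. HIF sites, through which the hypoxia-inducible factors act, were in 676 Norm-Sen and 601 Hyp-Imm windows (ratio 1.12, 1.01 to 1.26), and 53.4% of these Norm-Sen windows also held the E-box CACGTG. Windows with a p53 site, the element of the main senescence regulator, numbered 158 and 138 (1.14, 0.905 to 1.45), at up to 2 mismatches. Tfcp2l1 matches numbered 144 and 139 (1.04, 0.815 to 1.32), in 0.652% and 0.629% of windows. The intervals of HIF, p53 and Tfcp2l1 all reach ratios that would have been called for Norm-Sen, so the counts do not show that the sets were alike. By the file names Tfcp2l1 was called for immortalized cells, at 140 senescent and 179 immortalized windows (0.782, 0.622 to 0.981). NFkB, a driver of inflammatory secretion, was the sole motif whose interval lay below 1, at 630 against 717 windows (0.879, 0.788 to 0.979).

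AP-1 and ETS divided by place. In distal pairs AP-1 had a ratio of 1.899 (1.75 to 2.07), with 1601 Norm-Sen and 843 Hyp-Imm windows, while in promoter pairs the windows numbered 58 and 62 (0.935, 0.643 to 1.36). ETS was the reverse, at 2.09 (1.71 to 2.57) in promoter pairs and 1.02 (0.841 to 1.23) in distal pairs. CTCF had 1.65 in distal and 1.23 in promoter pairs. CRE was above the call in both, at 2.55 and 1.79. In promoter pairs alone, 9 motifs were called for Norm-Sen and 7 for Hyp-Imm (the E-box CAGATG, homeobox, Sox, Fox, Nr5a2 and Esrr, MEF2 and Tfcp2l1). Of those 7 only the E-box CAGATG, in 178 against 232 windows (0.767, 0.628 to 0.937), had an interval below 1. In shared regions, mostly promoters, AP-1 was in 4.40% and ETS in 11.2%.

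AP-1 sites were commoner in strong than in weak peaks of Norm-Sen, but not of Hyp-Imm. From the strongest to the weakest rank band, the Norm-Sen share was 10.7%, 8.35%, 7.66%, 6.24% and 6.52%. The Hyp-Imm share was 3.40%, 4.18%, 3.87%, 4.26% and 4.40%. The ratio was 2.63 (2.22 to 3.13) in the strongest of 3 rank classes and 1.56 (1.37 to 1.79) in the weakest. CTCF was higher in strong peaks on both sides, at 8.43% and 5.10% in the first band and 4.70% and 3.28% in the last. AP-1 sites also lay nearer the summit in Norm-Sen, with 59.2% of the windows holding a site in the central 100 bp against 51.2% in Hyp-Imm. Within pairs, 1599 had AP-1 on the Norm-Sen side alone, 845 on the Hyp-Imm side alone and 60 on both. The AP-1 letters overlap those of NRF2, the regulator of antioxidant genes: 19.4% of the Norm-Sen windows with AP-1 also held an NRF2 match, and NRF2 without AP-1 had a ratio of 1.15 (1.08 to 1.23).

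**Figure D3:**
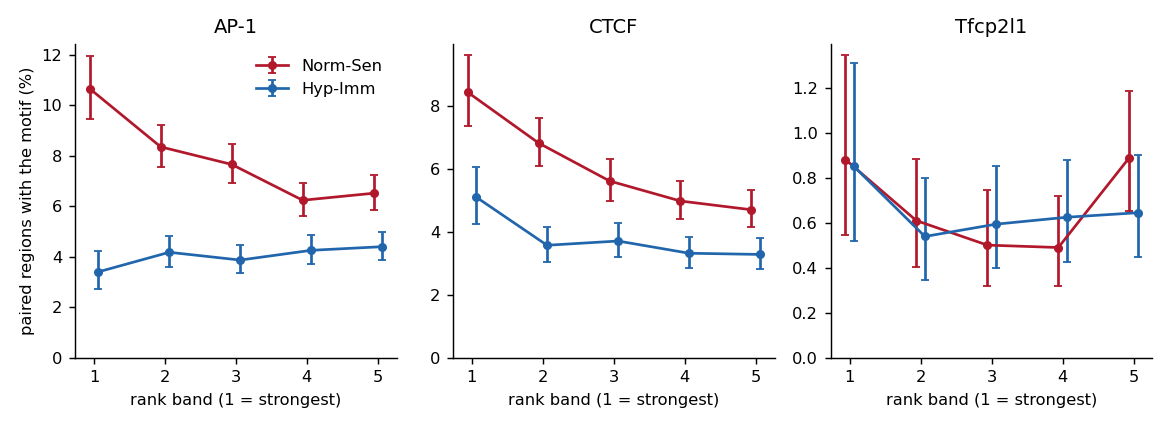
Paired regions with an AP-1, CTCF or Tfcp2l1 match in percent (y axes) by rank band (x axes, 1 is strongest), Norm-Sen in red and Hyp-Imm in blue, bars exact 95% intervals. The AP-1 share of Norm-Sen regions was 10.7% in the first band and 6.52% in the last and that of Hyp-Imm regions 3.40% and 4.40%, while the Tfcp2l1 intervals of the libraries overlapped in every band.

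All words of 6 bases were counted in the same windows, so that motifs outside the list could show. Of 2080 words tested, 30 (1.44%) were at least 25% more frequent in the Norm-Sen pairs and 1 (0.0481%) in the Hyp-Imm pairs. CG dinucleotides were in 28 of the 30, against 604 of all words (29.0%). The other 2, GACTCA and GAGTCA, lie inside the AP-1 site. The word of highest ratio was TCGCGA, the core of an element of CpG-island promoters, in 139 against 76 windows (1.83, 1.37 to 2.45). It was followed by GACGTA (1.55), ACTACG (1.48), GCGTTA (1.45) and ATCGAT (1.45). At the low end stood CCCCCC, in 1963 Norm-Sen and 2616 Hyp-Imm windows (0.750, 0.707 to 0.796), then TATATA (0.809), AATTCG (0.814), TAGATA (0.815) and ACCGGT (0.816). When pairs were also matched on CG dinucleotides, 12 words were called for Norm-Sen and 7 for Hyp-Imm.

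Norm-Sen specific regions were more often open at passage 1. A peak of Norm-Pro or Hyp-Pro lay on 22.4% of the Norm-Sen (21.9 to 23.0%) and 13.6% of the Hyp-Imm paired regions (13.1 to 14.0%), a ratio of 1.66 (1.58 to 1.73). The ratio was 1.78 (1.69 to 1.88) for Norm-Pro and 1.74 (1.64 to 1.85) for Hyp-Pro, with intervals that overlapped. Both passage 1 libraries were open at 7.74% and 3.55%. Of all specific regions without pairing, 28.5% of Norm-Sen and 11.6% of Hyp-Imm regions were open at passage 1, and 89.9% of shared regions were. Peaks seen in 1 late library alone were thus mostly absent from the passage 1 lists, at 77.6% of the Norm-Sen and 86.4% of the Hyp-Imm pairs.

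As a ratio the difference was larger at distal sites, and in percentage points at promoters, and it was seen in every rank band. In distal pairs 16.4% of Norm-Sen and 8.48% of Hyp-Imm regions were open at passage 1 (ratio 1.93, 1.82 to 2.05), and those open in both passage 1 libraries stood at 749 against 204 (3.67, 3.14 to 4.31). In promoter pairs the shares were 67.5% and 51.3% (1.32, 1.23 to 1.41). Promoter regions open in Hyp-Pro alone were the exception, with 269 Norm-Sen against 320 Hyp-Imm regions (0.841, 0.712 to 0.992). From the strongest to the weakest band the Norm-Sen share was 55.4%, 26.4%, 19.4%, 15.1% and 14.2%. The Hyp-Imm share was 27.7%, 15.3%, 12.9%, 10.8% and 9.08%. By the file names the shares open at passage 1 were 11.6% for senescent and 21.1% for immortalized cells (ratio 0.550).

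**Figure D4:**
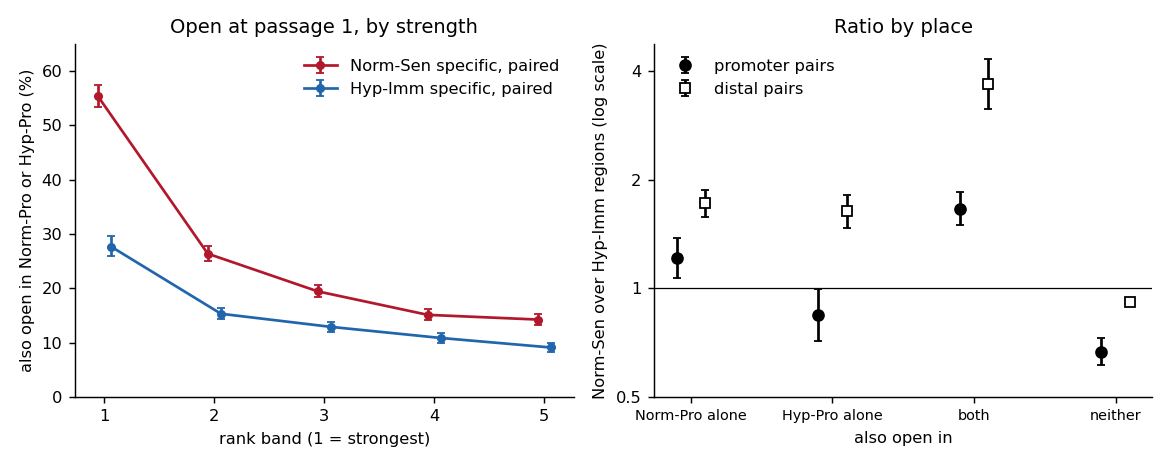
Left, paired regions also open in Norm-Pro or Hyp-Pro in percent (y axis) by rank band (x axis, 1 is strongest), with Norm-Sen (red) above Hyp-Imm (blue) in each band, from 55.4% against 27.7% to 14.2% against 9.08%. Right, number of Norm-Sen over number of Hyp-Imm paired regions (y axis, log scale) by the passage 1 library in which they were open (x axis), for promoter pairs (filled circles) and distal pairs (open squares), bars exact 95% intervals in both.

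AP-1 was commonest in the Norm-Sen regions that were already open at passage 1. Of paired regions open in a passage 1 library, 12.4% of Norm-Sen (11.5 to 13.3%) and 5.28% of Hyp-Imm regions (4.50 to 6.14%) held the site. Among regions open in neither, 6.11% and 3.91% did. CTCF went with passage 1 opening on both sides, at 9.46% and 7.31% of the open regions and 4.73% and 3.06% of the others.

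At the level of genes, promoters open in Norm-Sen alone outnumbered those open in Hyp-Imm alone. Of 20722 protein-coding genes, 5898 had an open promoter in both libraries, 3540 in Norm-Sen alone, 1412 in Hyp-Imm alone and 9872 in neither. Of the 10850 genes with an open promoter, 54.4% were thus open in both, 32.6% in Norm-Sen alone and 13.0% in Hyp-Imm alone. The counts of each gene group below are read against these shares. An open promoter is not a transcript, and no expression was measured in these libraries. By the file names 1133 genes were open in senescent cells alone and 3900 in immortalized cells alone, with 6177 in both.

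Of the gene groups, marker lists aside, secreted factors of senescence had the largest part in Norm-Sen alone. None of its 37 genes was open in both libraries, 12 were open in Norm-Sen alone, 4 in Hyp-Imm alone and 21 in neither. The Norm-Sen promoters included those of Igfbp7 (an insulin-like growth factor binding protein, rank 2962), the chemokine Cxcl1 (4997), the growth factors Areg (12527) and Ereg (16388), and Ccl2 (13296), and Il6 was among them at rank 25396. Those of Hyp-Imm were Igfbp4 (rank 2358), Cxcl5 (2444), the gelatinase Mmp2 (12088) and Tnf (31518). Of the 12 promoters open in Norm-Sen alone, 9 were open at passage 1, against 87.2% of all such genes. By the file names 3 of the 16 open genes would be open in senescent cells alone and 12 in immortalized cells alone.

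Of 28 cell cycle inhibitors and p53 targets, 16 were open in both, including Cdkn2a and Cdkn2b (the Ink4 inhibitors), Mdm2 and Bax. They made up 66.7% of the open genes of the group, against 54.4% over all genes. Cdkn1a, which encodes the inhibitor p21, was closed in both but open in both passage 1 libraries. The 7 open in Norm-Sen alone included Trp53 itself (rank 2544), Rbl2 (a relative of the retinoblastoma protein, 2863), Gadd45b (2912), Pmaip1 (the death factor Noxa, 3123), Plk2 (5792) and Perp (7931). Cdkn1b, which encodes the inhibitor p27, was the 1 gene open in Hyp-Imm alone (rank 2129). Genes of the cell cycle and replication divided alike. Of 37, 22 (68.8% of the open ones) were open in both, 8 in Norm-Sen alone (Aurka, Cdk6, Rrm1, Mcm7, Cdc6 and Ccnd3 the strongest) and 2, Ccnd2 and Aurkb, in Hyp-Imm alone. Promoters of division genes were thus open in the library labelled senescent, but Norm-Sen alone held only 25.0% of the 32 open genes of this group. It held 29.2% of the 24 open inhibitor and p53 genes, and each share was below the 32.6% of all genes.

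Genes of hypoxia and glycolysis were open in both libraries in 21 of 35 cases (67.7% of the open ones), with Hif1a at rank 218 in Norm-Sen and 305 in Hyp-Imm. Norm-Sen alone held 8, among them Hk2 and Pkm (glycolytic enzymes, ranks 2327 and 3471), Ndrg1, Pfkl, Epas1 (which encodes HIF-2α) and Egln1 (an oxygen sensor). Hyp-Imm alone held Bnip3 (a mitophagy factor, rank 3769) and the glucose transporter gene Slc2a3 (13366). The share in Norm-Sen alone, 25.8% of the open genes, was below that of all genes.

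Of 26 pluripotency and stemness genes, 9 were open in both (Klf4 and Myc among them), 6 in Norm-Sen alone and 0 in Hyp-Imm alone. The 6 were Sall4 (rank 8291), Dppa3, Sox9, Tfcp2l1 (16418, −log10 q 4.72), Hes1 and Nanog (28809, −log10 q 3.75), at middling to low ranks. The Tfcp2l1 promoter was also open in both passage 1 libraries, and that of Nanog in neither. Among 26 Polycomb genes, which encode repressors of development genes and of the Ink4 locus, 15 were open in both, Ezh1, Cbx6 and Mtf2 in Norm-Sen alone and Pcgf1 and Phf19 in Hyp-Imm alone.

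Fibroblast matrix genes had 4 of 13 open promoters (30.8%) in Hyp-Imm alone, against 13.0% of all genes. Of 30 genes, 7 were open in both, Vcan and Col5a2 in Norm-Sen alone, and Col1a2 (rank 4004), Fbn1 (fibrillin) and the basement membrane collagens Col4a1 and Col4a2, which share a promoter and here 1 peak between them, in Hyp-Imm alone. By the file names 2 of the group would be open in senescent and 11 in immortalized cells alone. Mesenchymal transcription factors leaned to Norm-Sen, with 8 of 16 open genes in it alone (Meox2, Tcf4, Tcf12, Snai2, Runx1 and Runx2 the strongest) and Zeb1 and Foxf2 in Hyp-Imm alone. Genes for AP-1 proteins themselves were open in both in 9 of 17 cases (64.3% of the open ones), including Jun, Junb, Jund and Fosl2. Fos, Maff and Batf3 were open in Norm-Sen alone, and Jdp2 and Fosb in Hyp-Imm alone.

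Antioxidant genes and NRF2 targets had 11 of 24 promoters open in both, 8 in Norm-Sen alone (Srxn1, which reactivates peroxiredoxins, at rank 1505, then Gstm1, Cat, Txnrd1, Osgin1 and Gsr) and Keap1, the NRF2 inhibitor, in Hyp-Imm alone. Housekeeping genes were counted likewise. Of 25 genes with an open promoter in the mitochondrial metabolism list, 11 (44.0%) were open in Norm-Sen alone, led by Mdh1, Ndufv1 and Cs. Atp5b and Uqcrc1 were open in Hyp-Imm alone, and Mdh2, the other malate dehydrogenase gene listed, in both. Of 26 such ribosomal protein genes 10 (38.5%) were open in Norm-Sen alone, led by Rpl35, Rpl30 and Rps6, and 4 (15.4%) in Hyp-Imm alone, near the shares of all genes. Of 14 neural genes 11 were closed in both, and Nes and Neurog1 were open in 1 library each.

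**Figure D5:**
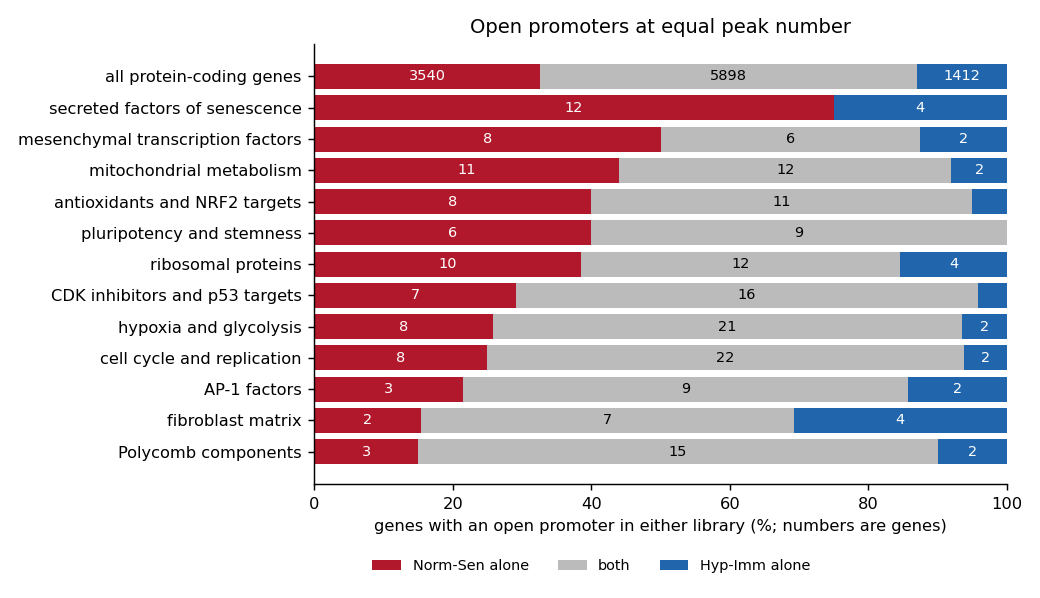
Genes with an open promoter in either library, in percent (x axis), divided into Norm-Sen alone (red), both (grey) and Hyp-Imm alone (blue), for all protein-coding genes and for the gene groups with at least 10 open genes (y axis); numbers in the bars are genes. Secreted factors of senescence had 12 of 16 in Norm-Sen alone and none in both, and all genes had 32.6% in Norm-Sen alone and 13.0% in Hyp-Imm alone.

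Paired regions were also counted in the regulatory domain of each gene (5 kb upstream to 1 kb downstream of its start, extended by up to 1 Mb to the next gene). Of 4345 genes with at least 6 regions, 880 (20.3%) had at least 2 times as many from Norm-Sen and 883 (20.3%) at least 2 times as many from Hyp-Imm. Pairing fixed an equal number of regions on each side, so nothing is read from this balance. The Norm-Sen surplus was highest at Gm15319 (45 against 2 regions), Gm21119 (31 against 3) and Gm31371 (22 against 2), all on chromosome 8, and at Cwc22 (40 against 13), Ube2e3 (30 against 10) and Sv2b (19 against 4). The Hyp-Imm surplus was highest at G6pd2 (4 against 21), Zmiz1 (5 against 22), Tle3 (3 against 18), Ajap1 (8 against 22), Fam19a5 (13 against 27) and Rps24 (4 against 18). Domains of neighbouring genes overlap, so the named genes need not be separate places. Cwc22 and Ube2e3 both lie on chromosome 2, and Zmiz1 and Rps24 on chromosome 14. Repeated or poorly mapped stretches were not removed from these counts either.

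Over the domains of a group, promoter and distal pairs were counted together. Domains of pluripotency genes held 111 Norm-Sen and 160 Hyp-Imm paired regions (ratio 0.694, 0.540 to 0.889), although no promoter of the group was open in Hyp-Imm alone. Those of ribosomal protein genes held 28 and 51 (0.549, 0.333 to 0.887), of which the domain of Rps24 alone held 4 and 18. Those of mesenchymal transcription factors held 165 and 127 (1.30, 1.02 to 1.65) and those of the secreted factors 96 and 77 (interval of the ratio 0.914 to 1.71). Over all genes the ratio was 0.994. Domains overlap, so a region can count for more than 1 gene of a group, and the intervals treat all counts as independent.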

How the data were processed

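Chromatin accessibility was measured by ATAC-seq in MEFs of 4 conditions, and Tfcp2l1 binding by ChIP in 2, with 1 library each. The authors aligned ATAC reads with Bowtie2 to GRCm38, removed pairs over 2 kb apart, shifted reads to the Tn5 site and called peaks with MACS2 per library at an FDR of 0.05. The deposited peak lists give fold enrichment (a ratio), −log10 p, −log10 q (p-value and q-value, used for rank) and the summit. Reads were not used here, so the authors' count comparison was not repeated. No file or label gave how many embryos or cultures stood behind a library. A shallow library loses weak peaks and gives the others few reads.

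Pairs had GC content in the same bin of 2 percentage points, ranks within 500 and the same place. Gene lists, motifs and members were chosen with earlier results of these data known. Named are the 6 strongest promoter and distal regions and the 6 largest domains a side, up to 6 list members by rank open in 1 library, called motifs with Tfcp2l1, AP-1, CTCF, HIF and p53, and the 5 words of highest and lowest ratio. Further members, and the list totals, were named after their values were seen. Other peak numbers, orders, overlaps, matchings, windows and distances, and the file names, were tried. Scripts (Python 3.11.15, numpy 2.4.6, pandas 2.3.3, scipy 1.17.1, matplotlib 3.10.9) were tested on simulated data.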

Additional observations from a re-analysis of the deposited data

Results flagged for a closer look

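Peaks on the X chromosome were outside every comparison, which used the autosomes, and their share of all peaks differed between libraries. It was 4.44% of the 61408 peaks labelled Norm-Sen and 1.44% of the 37770 labelled Hyp-Imm. In the passage 1 libraries it was 1.08% of the 69122 peaks labelled Norm-Pro and 4.76% of the 47523 labelled Hyp-Pro. The libraries thus fell into a pair with a high and a pair with a low share. By the labels each pair joins a late and a passage 1 library. By the file names the high pair is both passage 1 libraries and the low pair the senescent and the immortalized one.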

How the results depend on the processing

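The shared share of 9.45% was 16.8% with the 10000 strongest peaks, 8.82% in order of fold enrichment, 8.22% with every peak, 8.43% where 50% of the shorter peak had to overlap and 10.0% by the file names. The ratio of promoter shares, 2.02, was 2.46 with 10000 peaks, 1.55 by fold, 1.83 with promoters of 2.5 kb and 0.403 by the file names. The count of motifs called for Norm-Sen, 5, was 13 with 10000 peaks, 11 without matching, 8 in windows of 100 bp, 9 in promoter pairs and 0 by the file names. The motifs called for the other side, 0, were then 0, 6, 5, 7 and 7. The 30 words called became 215 with 10000 peaks, 527 without matching, 16 when also matched on repeats, 12 on CG dinucleotides, 54 with no peak of the other library within 1 kb and 9 by the file names, while the 1 word called for the other side became 34, 410, 2, 7, 3 and 59. The passage 1 ratio of 1.66 was 1.53 by fold, 2.45 without matching, 2.02 with no peak within 1 kb and 0.550 by the file names. Genes open in Norm-Sen alone over Hyp-Imm alone, 2.51, were 2.88 with 10000 peaks, 2.16 with 2.5 kb and 0.291 by the file names. The 880 domains became 259 with the nearest start site within 100 kb. The cause of these changes was not tested. AP-1 was 0.935 in promoter pairs, and the file names gave AP-1 0.508, CRE 0.415, CTCF 0.509, ETS 0.702, NRF1 0.444, and ratios of regions open at passage 1 of 0.522 in normoxia and 0.489 in hypoxia. Both readings used the same peak list, labelled Hyp-Imm, and in each it was the side with fewer called motifs and a lower promoter share. They are therefore not separate observations. That list also had the lowest estimated background, whose part in these values was not tested. Matching on CG dinucleotides, and 100 bp windows matched on their own GC content (7 motifs for Norm-Sen and 1, homeobox, for Hyp-Imm), were chosen after seeing the data. No paired analysis was possible because each condition had 1 library, so none could be left out either. Of the values not given here, 17 of the main results and 103 of single motifs, shares and counts moved little and 54 of the latter moved. Some motifs that were not called in the main pairs crossed 1 under other settings. By the file names these were HIF (0.808), p53 (0.913) and Tfcp2l1 (0.782), of which Tfcp2l1 passed the call for immortalized cells. Tfcp2l1 also crossed 1 under 6 more settings, between 0.792 and 0.957. Depth may limit the rest: at an estimated 25.2% of the background of Norm-Sen, a region without a Hyp-Imm peak may have been missed.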

Other observations

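Of 378 autosomal ChIP-Norm peaks 115 (30.4%) lay on any of the regions, and of 571 ChIP-Hyp peaks 138 (24.2%). They overlapped 66 and 76 shared regions, 37 and 45 Norm-Sen specific and 14 and 22 Hyp-Imm specific ones. For ChIP-Norm the Norm-Sen count was 2.64 times the Hyp-Imm count (1.40 to 5.29). These specific sets were not paired, and promoters made up 20.9% of the Norm-Sen and 10.3% of the Hyp-Imm regions. Among the paired regions ChIP-Norm lay on 19 and 12 and ChIP-Hyp on 24 and 19.

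In windows of 100 bp without new matching, 5 motifs were called for Hyp-Imm: homeobox, Oct, Fox, MEF2 and IRF. The intervals of Oct (0.493 to 1.16) and IRF (0.502 to 1.06) took in equal shares. The centre of the Norm-Sen regions was richer in GC than its surroundings (55.5% against 51.1% on average) and that of the Hyp-Imm regions less so (54.3% against 52.2%). After matching on the GC content of the 100 bp themselves, homeobox alone was called for Hyp-Imm (ratio 0.626).

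No chromosome took a large part in the specific sets. The ratio of Norm-Sen to Hyp-Imm paired regions went from 0.843 on chromosome 15 to 1.15 on chromosome 3, and none had 25% more from one side than from the other.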
